A study of Caenorhabditis elegans with 2 samples.

Results

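The genes described here encode the translation initiation and elongation factors of Caenorhabditis elegans, examined as places where tagged HMG-4 was recovered on chromatin. The members are all nuclear protein-coding genes in the Ensembl WBcel235 annotation whose names begin with eif-, ife-, iff-, ifg- or eef-. There were 39 such genes among 19973 protein-coding genes, of which 33 count as initiation factors by name (eif-, ife-, iff-, ifg-) and 6 as elongation factors (eef-). The samples were early embryos at 0 hours, obtained by bleaching egg-bearing worms of strain OP660, which carries the allele unc-119(tm4063) and a transgene, wgIs660. This transgene holds hmg-4 joined to the tags TY1, EGFP and 3xFLAG, together with an unc-119(+) copy. The tagged protein was made from this added transgene, the strain is a single transgenic line, and the embryos were of mixed sex. An anti-GFP antibody recovered the tagged protein from chromatin sheared by sonication into fragments of 200 to 800 bp, in 1 group of 2 biological replicates. There was no second group, so no condition is compared and no test over samples exists. The comparisons below are between initiation and elongation factors, between the members and all protein-coding genes, and between the replicates.

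Translation starts when eIF4E binds the cap of an mRNA and, with the scaffold eIF4G, brings it to a small ribosomal subunit loaded with eIF3 and with the initiator tRNA carried by eIF2. The exchange factor eIF2B recharges eIF2 with GTP. During elongation eEF1A delivers aminoacyl-tRNAs, the eEF1B complex recharges eEF1A with GTP, and eEF2 moves the ribosome along by a codon. HMG-4 is a worm counterpart of SSRP1, a subunit of the histone chaperone FACT, which takes apart and rebuilds nucleosomes in front of and behind RNA polymerase. Growing cells transcribe translation factor genes heavily. Peak lists hold no RNA measurement, so neither expression nor the cell types in the embryos could be checked here.

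Peaks came as 4 deposited lists: 30000 peaks for each replicate, 30000 for both replicates pooled, and 2137 thresholded by the irreproducible discovery rate (IDR). The 2137 IDR peaks were also the 2137 strongest peaks of the pooled list. The signal value is the authors' enrichment measure for a peak. It was at least 130 in the IDR list, 38.4 in that of the pooled replicates, 21.6 in that of replicate 1 and 21.8 in that of replicate 2. Sequencing depth is unknown, so a missing peak does not show a lack of binding. Intervals given below are exact binomial ones at 95% and cover counting error over genes only.

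Of the 39 translation factor genes, 12 had an IDR summit no more than 500 bp away from the 5' end, or 30.8% (interval 17.0 to 47.6), against 4.38% of all protein-coding genes. The initiation factors were eif-3.B, eif-3.C, eif-3.E, eif-3.G, eif-3.I, eif-2beta, ife-2, ife-4, iff-1 and iff-2, which made 10 of 33 (30.3%, interval 15.6 to 48.7). The elongation factors were eef-1A.1 and eef-1A.2, which made 2 of 6 (33.3%, interval 4.33 to 77.7). The initiation and elongation shares were thus close, and with 6 elongation genes the second is known only broadly. All 12 summits lay upstream of the annotated 5' end, by 81 to 389 bp, at a median position of -240 bp. Of the 874 protein-coding genes with such a summit, 81.5% had their strongest one upstream, and the median position over the 874 was -173.5 bp. Many worm mRNAs receive a spliced leader in trans, so the annotated 5' end of a gene can lie downstream of the place where RNA polymerase starts. Whether this bears on the positions of the summits was not tested. The strongest summit had a median pooled signal value of 193 over the 12 genes and 175 over the 874.

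**Figure D1:**
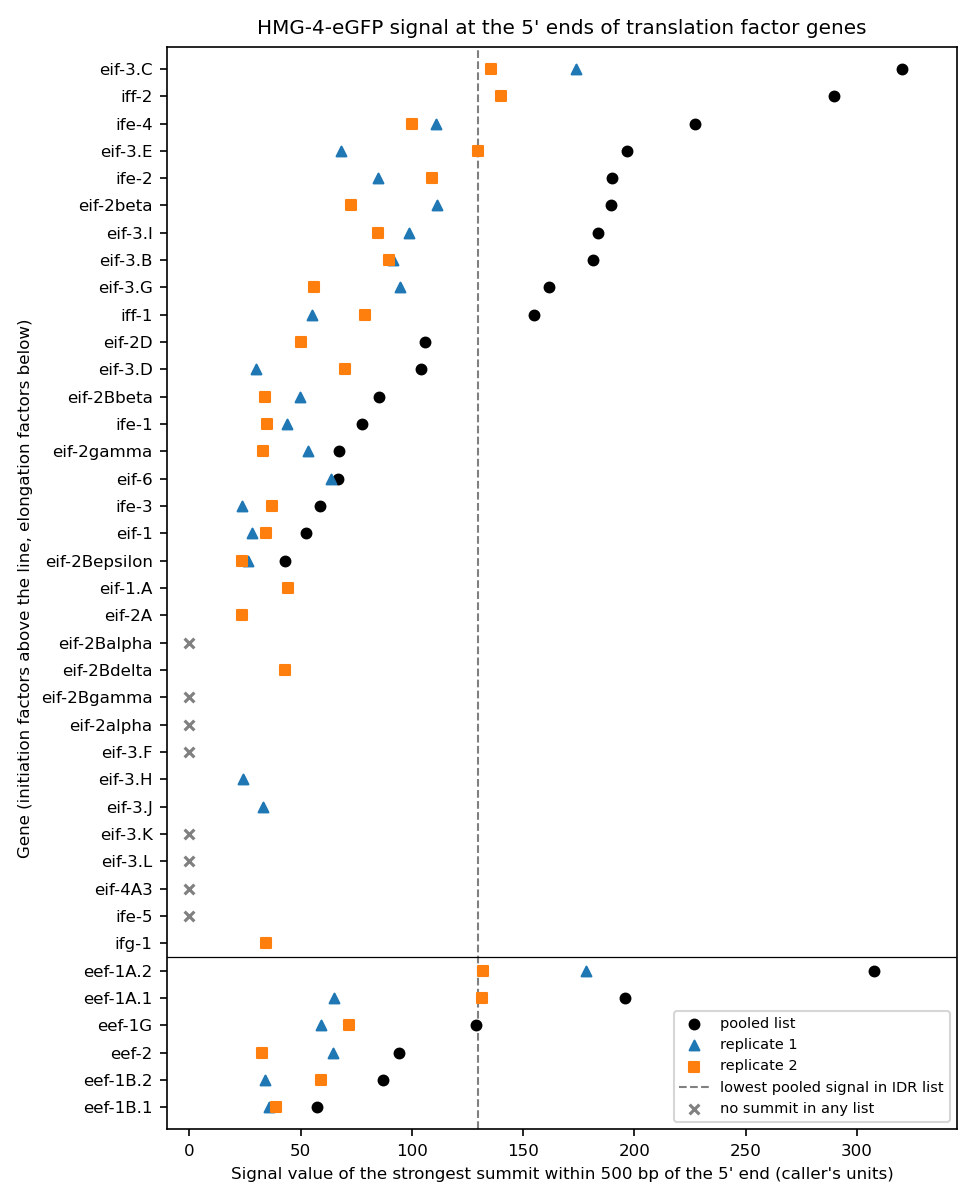
Signal value (horizontal axis, units of the authors' caller) of the strongest summit in the 500 bp on either side of each translation factor gene's start, with black circles for the pooled list, blue triangles for replicate 1, orange squares for replicate 2 and a grey cross at 0 where no list had a summit. The dashed line marks the lowest pooled signal of the IDR list (130), and 12 black circles lie to its right, 10 at initiation and 2 at elongation factor genes.

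DNA under 6 of these summits is shown because the genes form 3 groups of paralogs with 2 genes each that had a summit: the eEF1A genes, the eIF5A genes iff-1 and iff-2, and the eIF4E genes ife-2 and ife-4. Each window holds 201 bases centred on the summit, on the ce11 genome, read 5' to 3' on the strand of the gene. Most sonicated fragments were at least as long as these windows, so a summit marks a place only roughly. The windows are chrIII:6972001-6972201 for eef-1A.1 (minus strand), chrX:7823212-7823412 for eef-1A.2 (plus), chrIII:9747337-9747537 for iff-1 (minus), chrII:8561348-8561548 for iff-2 (minus), chrX:382788-382988 for ife-2 (minus) and chrX:1103814-1104014 for ife-4 (plus). Capitals mark every match, on either strand, to any of 5 motifs. These are the TATA box TATAAA, the splice acceptor TTTCAG, the sequence GGTTCGA from the B box of tRNA genes, the repeat GAGAGA, and the E box CACGTG.
eef-1A.1: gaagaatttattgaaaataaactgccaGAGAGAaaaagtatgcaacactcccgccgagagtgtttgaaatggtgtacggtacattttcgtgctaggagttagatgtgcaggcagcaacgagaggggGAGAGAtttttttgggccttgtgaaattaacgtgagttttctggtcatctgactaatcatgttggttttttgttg
eef-1A.2: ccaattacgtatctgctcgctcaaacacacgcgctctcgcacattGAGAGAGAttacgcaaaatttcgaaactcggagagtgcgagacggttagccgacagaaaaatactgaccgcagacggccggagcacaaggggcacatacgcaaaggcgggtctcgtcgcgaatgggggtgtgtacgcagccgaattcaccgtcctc
iff-1: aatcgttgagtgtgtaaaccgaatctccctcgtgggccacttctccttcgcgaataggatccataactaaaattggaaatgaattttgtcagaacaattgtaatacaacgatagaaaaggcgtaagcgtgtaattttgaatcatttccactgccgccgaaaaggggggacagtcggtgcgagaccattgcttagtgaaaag
iff-2: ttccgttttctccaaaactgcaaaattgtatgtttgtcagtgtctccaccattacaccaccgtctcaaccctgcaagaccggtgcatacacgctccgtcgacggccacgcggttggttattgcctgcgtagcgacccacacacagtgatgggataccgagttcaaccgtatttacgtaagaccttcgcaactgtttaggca
ife-2: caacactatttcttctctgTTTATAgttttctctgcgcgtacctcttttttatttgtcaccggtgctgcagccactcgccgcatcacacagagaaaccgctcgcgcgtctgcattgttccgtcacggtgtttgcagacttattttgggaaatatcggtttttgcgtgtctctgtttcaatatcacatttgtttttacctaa
ife-4: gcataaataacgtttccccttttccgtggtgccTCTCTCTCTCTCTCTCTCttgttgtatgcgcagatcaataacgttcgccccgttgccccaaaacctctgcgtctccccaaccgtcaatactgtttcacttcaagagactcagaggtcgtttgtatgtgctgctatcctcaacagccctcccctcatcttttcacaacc
GAGAGA or its reverse complement stood in the windows of eef-1A.1, eef-1A.2 and ife-4, where the ife-4 match is a longer run of TC repeats that contains overlapping matches. TATAAA stood in that of ife-2, and neither eIF5A window held any of the 5 motifs. Over the windows of all 12 summits, GAGAGA was present in 3 (25.0%), against 43.9% of the windows of all 2137 IDR summits. TATAAA was present in 2 (16.7%, against 7.63%), TTTCAG in 2 (16.7%, against 11.5%), and GGTTCGA (7.25% of all windows) and CACGTG (4.77%) in 0. The GC content of the 12 windows had a median of 43.5% and ran from 38.8 to 55.2%, the highest being that of eef-1A.2. The median over all IDR summit windows was 48.8%. In the promoters themselves, taken as 250 bases before to 50 after the 5' end, TTTCAG was present in 8 of the 12 genes with an IDR summit, in 16 of the 27 without and in 51.7% of all protein-coding genes. TATAAA was present in 4, in 13 and in 37.9%, and GAGAGA in 3, in 3 and in 21.8%. GGTTCGA (1.42% of all promoters) and CACGTG (5.82%) were present in none of the 39 promoters.

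Cap recognition is the task of the eIF4E genes, and 2 of the 5 had an IDR summit, beside 4.38% of all protein-coding genes. So small a count says little about the family. At ife-4 on X the summit lay 298 bp upstream, with a pooled signal value of 227 (rank 598 of 30000), 111 in replicate 1 and 100.2 in replicate 2. At ife-2, also on X, it lay 179 bp upstream, with 190 in the pooled list (rank 890), 84.9 in replicate 1 and 109 in replicate 2. The replicates thus differed little at ife-4 and in the opposite direction at ife-2, and no other gene starts within 500 bp of either summit. The other 3, ife-1, ife-3 and ife-5, include the isoforms known from germline work, such as ife-1, which associates with P granules. ife-1 had a pooled summit of 77.7 upstream, and ife-3 had one of 58.9 inside the gene. ife-5 had none near its 5' end in any list, and it begins 65 bp behind Y57A10A.29 on the same strand. ifg-1, the gene for the scaffold eIF4G, had summits near its 5' end in replicate 2 only, the stronger at 34.3.

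The eIF5A genes both had IDR summits, beside 4.38% of all protein-coding genes, though a family of 2 genes is too small to read as a result. eIF5A was named as an initiation factor, and is now known to help the ribosome through difficult peptide bonds, so its place among initiation factors rests on its name. iff-2, the form used in somatic tissue, had a pooled signal value of 290 (rank 322) at 81 bp upstream, the summit closest to its gene among the 12. Replicate 2 had 140 there (rank 310) and replicate 1's list had no overlapping peak. Such gaps were not rare, since 197 of 2126 IDR intervals had no peak in replicate 1 and 2 had none in replicate 2. The pooled peak at iff-2 was also narrow, 157 bp against a median of 440 bp over the IDR list. iff-1, the form needed in the germline, had 155 in the pooled list (rank 1421), 55.1 in replicate 1 and 78.9 in replicate 2, the lowest pooled value of the 12. Its summit was 244 bp from iff-1 but 35 bp from the 5' end of cdk-1, the cyclin-dependent kinase of mitosis, which is transcribed in the opposite direction.

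Among the elongation factors the IDR summits were at the eEF1A genes. eef-1A.2 on X had a pooled signal value of 308 (rank 278), 178 in replicate 1 and 132 in replicate 2, at 342 bp upstream. In both replicates this peak stood among the strongest 361 of 30000. A second pooled summit of 116 lay 132 bp upstream of the same gene. The non-coding gene R03G5.8 starts 213 bp from the stronger summit. eef-1A.1, widely known as eft-3 and the source of a broadly active promoter for worm transgenes, had 196 in the pooled list (rank 829), 65.1 in replicate 1 (rank 3042) and 132 in replicate 2 (rank 365). Relative to replicate 2, replicate 1 was lower here than at any other of the 11 sites with a peak in both. The summit was 389 bp from eef-1A.1, the farthest of the 12, while the 5' end of rfc-4, a replication factor C subunit gene, was 152 bp away and that of the microRNA gene cel-mir-5549 was 16 bp away. Which of the 3 genes the signal belongs to cannot be told apart.

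The other 4 elongation factor genes had pooled summits near their 5' ends that were weaker. eef-1G, a subunit gene of the eEF1B complex, had 129 (rank 2185), just under the weakest IDR peak, with 59.1 in replicate 1 and 71.7 in replicate 2, at 44 bp upstream. eef-2, the translocation factor gene, had 94.4 in the pooled list (rank 4764, 30 bp upstream), and in the same window 64.7 in replicate 1 and 32.9 in replicate 2. The replicates were close at eef-1G and far apart at eef-2. There replicate 2's strongest summit lay 271 bp into the gene, and a weaker one of 25.4 lay at 28 bp. eef-1B.2 had 87.1 in the pooled list (rank 5908, 196 bp upstream). Its strongest summits in the window were 33.9 in replicate 1, at position 160 bp, and 59.1 in replicate 2, at -58 bp. eef-1B.1 had 57.2 in the pooled list (rank 16227) at position 444 bp, 35.7 in replicate 1 at -360 bp and 38.7 in replicate 2 at 170 bp. These strongest summits thus lay at different places in the window, and do not show the replicates agreeing on a site. By the strongest summit in the window, wherever it lay, eef-2 was above eef-1B.2 in replicate 1 and below it in replicate 2.

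eIF3 is the largest initiation factor, a scaffold on the small ribosomal subunit that helps to recruit the mRNA. IDR summits stood at 5 of its 11 member genes, beside 4.38% of all protein-coding genes. eif-3.C, a core subunit gene, had the strongest summit of all members, 320 in the pooled list (rank 250), 174 in replicate 1 and 135 in replicate 2, at 237 bp upstream on chromosome I. eif-3.E had 197 in the pooled list (rank 825, 207 bp upstream), 68.1 in replicate 1 and 130 in replicate 2. eif-3.I had 184 (rank 954, 194 bp upstream), 98.7 and 84.9 in the same lists. The replicates differed more at eif-3.E than at eif-3.I. eif-3.I encodes a subunit of the core shared with yeast, whereas eif-3.E encodes one outside it. eif-3.B, another core subunit gene, had 182 (rank 976, 243 bp upstream), 91.6 and 89.8. eif-3.G, whose product is a core subunit that binds RNA, had 162 (rank 1277, 334 bp upstream), 94.6 and 55.9. The replicates were closest at eif-3.B and were farthest apart, in opposite directions, at eif-3.E and eif-3.G. abtm-1, an ABC transporter gene on the opposite strand, starts 276 bp from the summit at eif-3.I, and the other 4 summits had no other gene start within 500 bp. Of the 6 other eIF3 genes, eif-3.D had a pooled summit of 104 (rank 3705) at position -307 bp, where replicate 2 had 69.9. Replicate 1's list lacked that summit, and its only one in the window was 29.9 at position 456 bp, inside the gene. eif-3.H and eif-3.J had summits near the 5' end in replicate 1 only (24.3 and 33.0), and eif-3.F, eif-3.K and eif-3.L had none there in any list. At their 5' ends the eIF3 genes thus ran from the strongest member to no summit. The gene for the largest eIF3 subunit, egl-45, is outside the naming rule and was not counted.

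IDR summits near the 5' end stood at 1 of the 3 eIF2 subunit genes and 0 of the 5 eIF2B genes, beside 4.38% of all protein-coding genes, and such small counts show no difference from that share. The eIF2 gene was eif-2beta, with its summit 103 bp upstream and 189 in the pooled list (rank 895), 111 in replicate 1 and 72.6 in replicate 2. A pair of non-coding genes, both listed as K04G2.15, start 38 and 141 bp from it. eif-2gamma, the GTP-binding subunit gene, had a pooled summit of 67.2 at position -402 bp. In the same window the strongest was 53.4 at -430 bp in replicate 1 and 33.0 at 490 bp in replicate 2. eif-2alpha, whose product is phosphorylated under stress, had none near its 5' end in any list. Of the eIF2B genes, eif-2Bbeta had 85.4 and eif-2Bepsilon 42.8 near the 5' end in the pooled list, and eif-2Bdelta had a summit there in replicate 2 only (43.2). eif-2Balpha and eif-2Bgamma had no summit at the 5' end, in the gene or up to 500 bp past it in any of the 4 lists. With a window of 1000 bp around the 5' end, eif-2Bgamma gained an IDR summit. The start-site selection factors eif-1 (pooled 52.6) and eif-1.A (44.3 in replicate 2 only) also lacked IDR summits. So did eif-2D, with 106 in the pooled list (rank 3526, position -185 bp), 50.02 in replicate 2 and no summit near the 5' end in replicate 1. The others were eif-6 (66.6), eif-2A (23.5 in replicate 2 only) and eif-4A3, which had no summit near its 5' end. These last 4 have main roles outside the core pathway, for example eif-6 in making large ribosomal subunits and eif-4A3 in the exon junction complex.

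**Figure D2:**
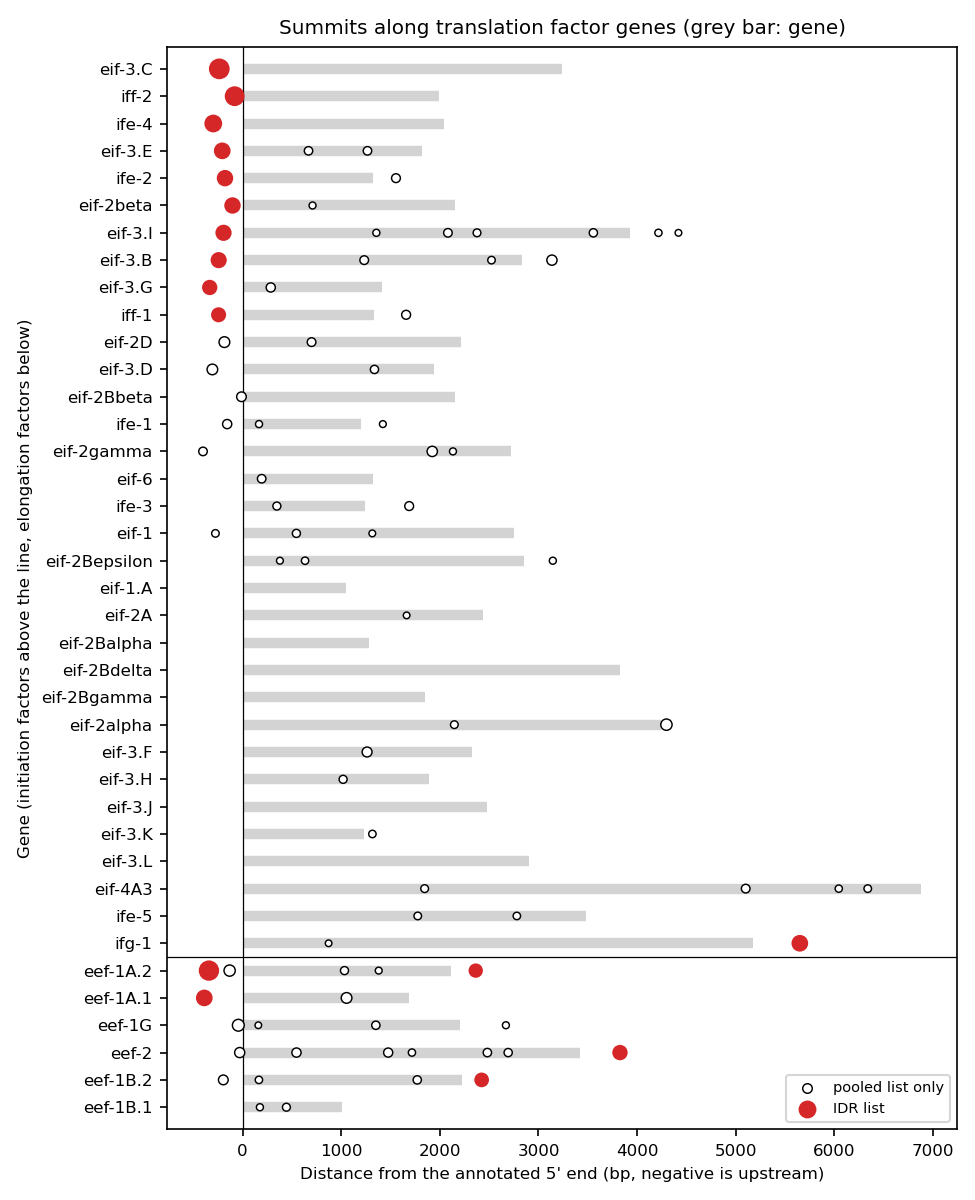
Positions of pooled-list summits along each translation factor gene, in bp from its annotated 5' end (horizontal axis), where grey bars are the genes and the area of a circle grows with its signal value. Red circles are in the IDR list: 12 lie upstream of a 5' end, 0 inside a gene beyond 500 bp, and 4 past a 3' end (eef-1A.2, eef-1B.2, eef-2 and ifg-1).

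With the weaker peaks included, more members had a summit at the 5' end, and all elongation factors did. In the pooled list it was 19 of 33 initiation (57.6%, interval 39.2 to 74.5) and 6 of 6 elongation factor genes (interval 54.1 to 100%), together 25 of 39 against 29.5% of all protein-coding genes. In replicate 1 it was 19 and 6, against 28.2% of protein-coding genes, and in replicate 2 it was 22 and 6, against 31.5%. Both replicates had one at 22 members, of which 16 were initiation and 6 elongation factor genes. Replicate 1 alone had one at 3 members, replicate 2 alone at 6 and neither at 8, and these were initiation factor genes without exception. Such counts take a summit anywhere in the window, so the replicates need not share a site. At eif-3.D, for example, replicate 1 had its summit at 456 bp and replicate 2 its strongest at -307 bp. The share of all protein-coding genes with a summit in both replicates was not computed. The strongest pooled summit had a median of 155 over the 19 initiation genes and 112 over the 6 elongation genes, against 69.3 over all protein-coding genes with one. The order of the classes was the other way round in each replicate, at 55.1 for initiation and 61.9 for elongation genes in replicate 1 and at 53.0 and 65.4 in replicate 2. Genes without a summit are left out of these medians, so the initiation medians cover different sets of genes, 19 pooled, 19 in replicate 1 and 22 in replicate 2. The change of order may therefore reflect which genes had a summit in each list, which was not tested. The weaker summits often had high deposited q-values. In the replicate lists the −log10 q-value went down to 0.36 in replicate 1 and 0.074 in replicate 2. For members, q-values were not computed in these 2 lists. The q-value was above 0.05 at 9 of the 13 members with a pooled but no IDR summit. The same share over all protein-coding genes was not computed. It was above 0.05 at 0 of the 12 members with an IDR summit, which was fixed by the list. Every IDR peak had a −log10 q-value of at least 2.47. As in the IDR list, pooled summits lay mostly upstream, at 21 of the 25 members, or 84.0%, against 52.8% of the 5892 protein-coding genes with a pooled summit near the 5' end.

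**Figure D3:**
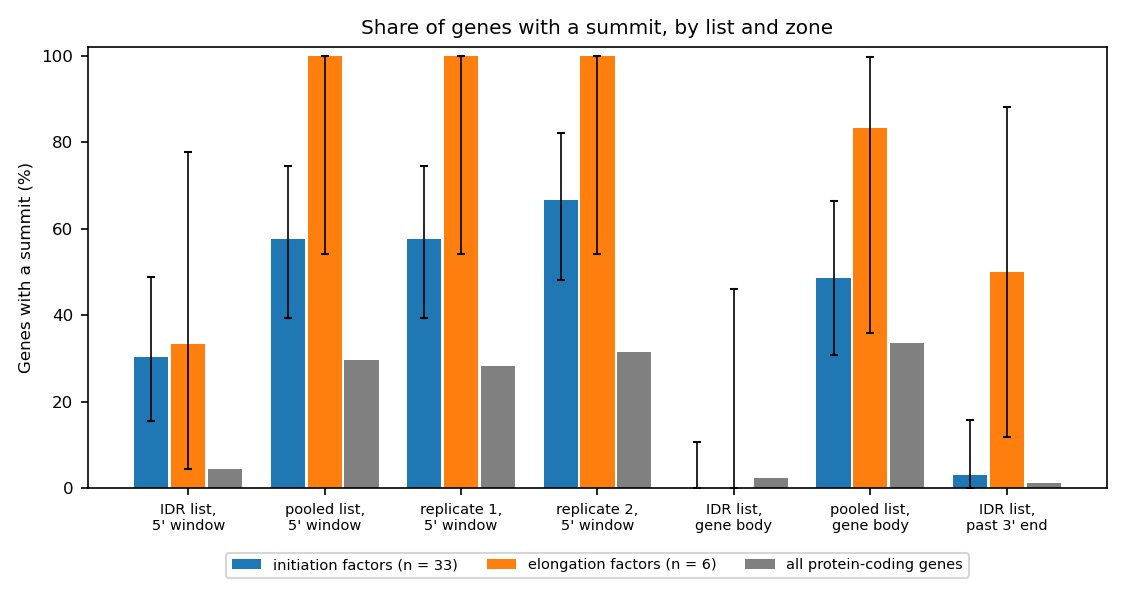
Share of genes (vertical axis, %) with a summit in each list and zone, for 33 initiation factor genes, 6 elongation factor genes and all 19973 protein-coding genes, with exact 95% binomial intervals for the members. In the IDR list the 5' shares of the initiation (30.3%) and elongation (33.3%) genes were close, while past the 3' end they were 3.03% and 50%.

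Inside the genes, beyond 500 bp from the 5' end, 0 of the 39 members had an IDR summit, with an interval of 0 to 9.03%, against 2.33% of all protein-coding genes. Weak summits were present there. In the pooled list 16 of 33 initiation and 5 of 6 elongation genes had one, together 53.8%, against 33.6% of all protein-coding genes. Per kb of this part of the gene there were 0.415 pooled summits in initiation genes, 1.04 in elongation genes and 0.330 in all protein-coding genes. The density was lower in initiation than in elongation genes in both replicates, at 0.554 per kb in initiation and 1.04 in elongation genes in replicate 1, and at 0.369 and 0.726 in replicate 2. These rest on 10 pooled summits in elongation genes, 5 of them in eef-2, with 1 to 2 in each of 4 others. The strongest in an initiation gene was at eif-2gamma, with 98.0 in the pooled list, and the strongest in an elongation gene was at eef-1A.1, 1054 bp into the gene, with 105. At eef-1A.1 replicate 2's summit was 68.6 (rank 1845), and it was the only one in a member's body among the 2137 strongest of replicate 2.

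Past the 3' end, a zone added after the values were seen, IDR summits lay within 500 bp at 1 of 33 initiation genes (3.03%, interval 0.077 to 15.8) and 3 of 6 elongation genes (50%, interval 11.8 to 88.2), against 1.19% of all protein-coding genes. At eef-2 the summit was 406 bp past the end, with 163 in the pooled list beside 88.1 in replicate 1 and 76.6 in replicate 2, and no annotated gene starts within 500 bp of it. At eef-1B.2 it was 204 bp past the end with 147, 77.2 and 74.4, inside hrpu-1, an RNA-binding protein gene that starts 139 bp away, and the non-coding gene Y41E3.459 starts 68 bp away. At eef-1A.2 it was 249 bp past the end with 139 in the pooled list and 42.0 in replicate 2, while replicate 1's list had no overlapping peak, and the non-coding gene C54D2.14 holds it. At the initiation gene ifg-1 it was 477 bp past the end with 197, 121 and 76.6, inside dab-1, which starts 487 bp away. The 3 elongation genes thus differ in what else lies at their summits, and only the one at eef-2 has no other gene start close by.

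The replicates can be compared at 11 of the 12 sites, since the list of replicate 1 had no overlapping peak at iff-2. At the 11 sites the sum of both replicate values was near the pooled value. For example, it was 310 beside 308 at eef-1A.2, and it was farthest off at iff-1, with 134 beside 155. At iff-2 the pooled value was 290 and that of replicate 2 was 140. Whether replicate 1 held unlisted signal at iff-2 was not tested. The value in replicate 1 divided by that in replicate 2 had a median of 1.10 and ran from 0.495 at eef-1A.1 to 1.69 at eif-3.G, against a median of 1.22 over 1927 IDR intervals with a peak in both. Replicate 1 was lower at eef-1A.1, eif-3.E, iff-1 and ife-2 and higher at the other 7. The pooled values of the 12 members spanned 155 to 320. With such ratios between replicates, the order of members with close pooled values is uncertain, and it was not tested. Among the 2137 strongest peaks of replicate 2 alone, 13 members had a 5' summit, against 4.83% of all protein-coding genes, with eef-1G and eif-3.D added and eif-3.G lost. With those of replicate 1 there were 8, against 3.79%, without eef-1A.1, eif-3.E, iff-1 and iff-2.

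**Figure D4:**
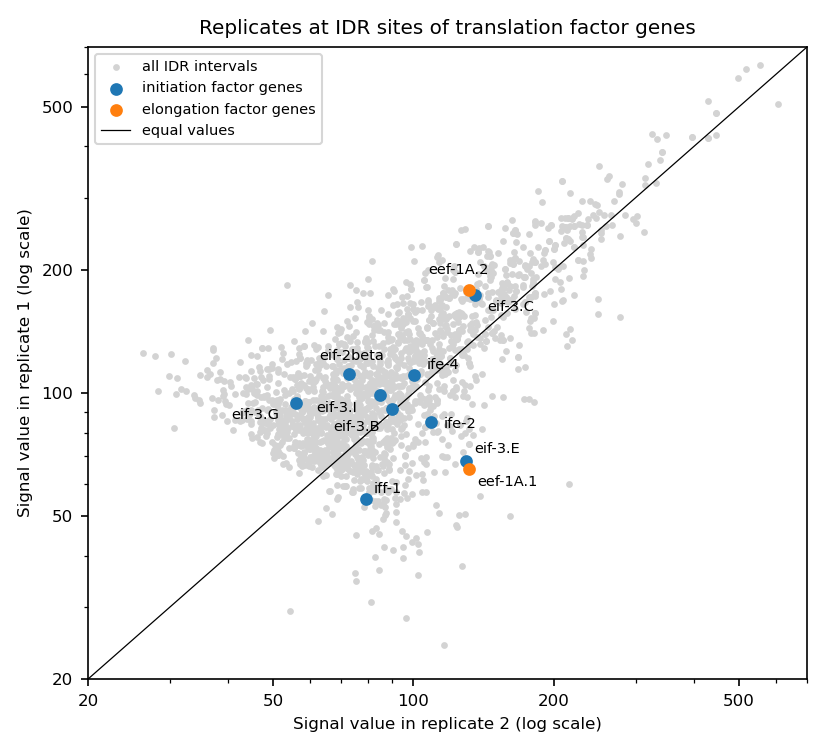
Signal value in replicate 1 (vertical axis) against replicate 2 (horizontal axis), both on log scales, at 11 sites upstream of translation factor genes (9 initiation, 2 elongation) and at all IDR intervals with a peak in both lists (grey). eef-1A.1 and eif-3.E lie farthest below the line of equal values, at ratios of 0.495 and 0.525.

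The members with an IDR summit lay on X, I, II and III. All 3 members on X had one (eef-1A.2, ife-2 and ife-4), against 7.40% of protein-coding genes on X. On the autosomes it was 9 of 36, against 3.90%. By chromosome these were 4 of 12 on I, 3 of 12 on II, 2 of 6 on III, 0 of 2 on IV and 0 of 4 on V. Worm genes are often grouped into operons, in which a gene follows another closely and shares its promoter, though operons are not annotated in the sources used here. Of 7 members that begin within 500 bp behind a protein-coding gene on the same strand, 1 had an IDR summit, against 2.74% of all such genes. That member was eif-3.C, 401 bp behind sys-1. The others were eef-1B.2, eif-2alpha, eif-2gamma, eif-2Bgamma, eif-3.F and ife-5. Of the other 32 members, 11 had one, against 4.74% of all other protein-coding genes.

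Translation genes with other names were counted from a list chosen with earlier results of these data known. Of its 27 names, 24 were found in the annotation. IDR summits lay at the 5' ends of 3 of the 24, or 12.5% (interval 2.66 to 32.4), beside 30.8% of the members and 4.38% of all protein-coding genes. These were the poly(A)-binding protein gene pab-2 on X (313 in the pooled list beside 168 in replicate 1 and 150.2 in replicate 2), drr-2, which encodes an eIF4H-like protein (279, 147 and 132), and the termination factor gene erfa-3 (187, 104 and 82.0). The summit at drr-2 was 145 bp from the 5' end of set-16 and 201 bp from that of drr-2. In the pooled list 18 of the 24 had a summit near the 5' end, against 29.5% of all protein-coding genes.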

How the data were processed

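Per the file headers in the descriptions deposited beside each list, the authors called peaks from the alignment of each replicate together with a control alignment that was the same for both, from both replicates pooled, and thresholded them by IDR, all on ce11. Aligner, caller, versions and thresholds: not given in the sources used here. As deposited, signal is the caller's enrichment measure, with an unstated scale, and the deposited −log10 q-value was used once, at a q of 0.05. Control libraries were not used here.

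Summits were set against Ensembl release 115 (46890 nuclear genes) and the RefSeq genome of the same build (WBcel235), which contained every peak. A summit no more than 500 bp from a gene's 5' end counted there, otherwise in the gene body, otherwise up to 500 bp past the 3' end. A summit near several genes counted for each. Replicate values are those of the strongest peak of that replicate overlapping the IDR peak by at least 1 bp, or, for members without an IDR peak, the strongest summit in the same window of each list. Coordinates are 1-based. No test was run, since genes and peaks are not replicates. The zone function recovered 200 of 200 planted summits in simulated data (python 3.11.15, pandas 2.3.3, scipy 1.17.1).

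Members, lists and motifs were chosen with earlier results of these data known. By the rule for naming, every member is named, with full values for those with IDR summits and the 5 strongest others. Alternatives varied the window, the 5' end, the peak position, the list, the replicate and the class of the eIF5A genes.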

Additional observations from a re-analysis of the deposited data

How the results depend on the processing

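With a window of 200 bp, IDR summits lay at 4 members, 4 initiation genes and 0 elongation genes, against 2.18% of protein-coding genes. Pooled summits lay at 13 members with that window, and the matching share of all protein-coding genes was not computed. The alternative was built to count fewer summits, and the 4 that stayed were eif-2beta, eif-3.I, ife-2 and iff-2. With a window of 1000 bp, built to count more, IDR summits lay at 14 members, against 6.20% of protein-coding genes. The members added were eif-2Bgamma and ife-3. Leaving out summits with any other gene start within 500 bp, chosen after seeing the data, kept 7 members. No share of all protein-coding genes was computed under this filter, nor under those below on small RNA genes and nearest 5' ends. The unfiltered share is not a matching baseline for them. Leaving out eif-4A3, eif-2D, eif-2A and eif-6, also chosen then, kept 10 initiation genes. The elongation count was 1 when summits at small RNA genes were left out and 1 when each summit went to its nearest protein-coding 5' end, since both remove eef-1A.1, and 4 with the eIF5A genes classed there, which left 8 initiation genes. Leaving out each replicate gave 1 to 3 elongation genes and 0 to 1 members with a summit in the gene body. The median pooled signal over members with a 5' summit, 129, was 106 with 200 bp and 112 with 1000 bp, and 57.5 to 59.1 in the single replicates, whose values are on a lower scale. Other counts stayed within 1.5 times. No paired analysis was possible because there is 1 group. The unknown depth limits what a missing summit shows.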
